A study of Mus musculus with 10 samples.

Results

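The genes described here encode the sarcomere and cytoskeleton protein Obsl1, the kinase Speg, the myosin light chain kinases Mylk, Mylk2, Mylk3 and Mylk4, and the alpha kinases Alpk2 and Alpk3. They were chosen by gene symbol, and all 8 were found among the 23337 genes of the count tables. Bulk RNA-Seq was available for left ventricle (LV) and skeletal muscle (SkM) of 5 mice aged 17 weeks. The mice were C57BL/6/129SvEv hybrids, 2 of them WT and 3 of them E0del/+, which carry on 1 allele a germline deletion, made with CRISPR/Cas9, of the conserved element E0 in intron 1 of the titin gene Ttn. Each library held 1 tissue of 1 mouse, with total gene counts from 11010021 to 15361520 in LV and from 13892390 to 17484873 in SkM. The labels name neither the muscle that was sampled nor the sex of each mouse, and the age is not from the labels. The batch tag of a mouse is the same as its replicate number. Genotypes can therefore be matched by batch in batches 1 and 2, while batch 3 has no WT mouse. Xist, whose level depends on sex, differed within batch 2. It was at 572 (LV) and 356 (SkM) normalized CPM in E0del/+ and at 3.10 and 0.476 in WT. Sex and genotype thus cannot be told apart within batch 2.

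Speg belongs to the titin family of muscle proteins, built from immunoglobulin and fibronectin repeats, and carries a pair of kinase domains. Speg sits at the junction of sarcomere and sarcoplasmic reticulum, where it binds junctophilin 2 and myotubularin, and Obsl1 is a kinase-free member of the same family that is also part of the 3M growth complex with Cul7 and Ccdc8. Myosin light chain kinases are switched on by calcium and calmodulin and phosphorylate the regulatory light chain of myosin: Mylk is the smooth muscle and non-muscle enzyme, Mylk2 the skeletal muscle enzyme and Mylk3 the cardiac enzyme, while Mylk4 is the least studied of them. Alpk2 and Alpk3 are members of the atypical alpha kinase class, and loss of ALPK3 causes cardiomyopathy in people.

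In mm10 coordinates of the count tables, Mylk lies on chromosome 16 from 34784950 to 35002434 (32 exons) and Mylk2 on chromosome 2 from 152911352 to 152923065 (12 exons), both on the plus strand. Mylk3 lies on chromosome 8 from 85324929 to 85365324 (13 exons) and Mylk4 on chromosome 13 from 32700827 to 32781779 (12 exons), both on the minus strand. Alpk2 is on the minus strand of chromosome 18 from 65265531 to 65393888 (13 exons), and Alpk3 on the plus strand of chromosome 7 from 81057600 to 81105612 (14 exons). The 8 genes thus lie on 7 chromosomes, and only Speg and Obsl1 share one.

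Before any comparison, the tissue labels were checked against markers. The 6 ventricular markers summed to between 45197 and 63678 normalized CPM in the 4 LV libraries other than WT replicate 2, with Myh6 the most abundant, and to between 73.5 and 332 CPM in the SkM libraries, where Nkx2-5 had 0 counts in 4 of 5. All 6 were called higher in LV by edgeR, with a median log2 fold change of 8.36. The 9 fast fibre markers, led by Myh4, summed to between 126247 and 166107 CPM in SkM and to between 81.0 and 106 CPM in those 4 LV libraries. All 9 were called higher in SkM, with a median of -10.4. The LV library of WT replicate 2 stood apart, with 23251 CPM of fast fibre markers next to 44339 CPM of ventricular markers. For the 8 genes the values of this library are given on their own, and means over LVs leave it out. The mouse was left out of the fit that compares the tissues. The genotype and interaction fits include this library unless stated otherwise. Normalized CPM are counts scaled to library size, corrected by TMM over all 10 libraries.

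LV and SkM were compared within mice, to see which of these genes belong to the heart and which to skeletal muscle. Of the 8 genes, 4 were higher in LV at an adjusted p under 0.05 (Mylk3, Alpk2, Obsl1 and Mylk). The 4 others (Mylk2, Mylk4, Speg and Alpk3) were higher in SkM at that threshold, Alpk3 with TMM scaling but not on total counts. The background is wide: of 13375 genes tested, 31.5% were called higher in LV and 29.8% higher in SkM, 61.3% in all, so being called says little by itself and the sizes differ far more than the calls. Mylk2 ranked 22 among all genes tested by its excess in SkM and Mylk3 ranked 11 by its excess in LV, whereas the other 6 ranked between 409 and 3847 on their side. In pieces of tissue, fewer cells of a type and less RNA per cell cannot be told apart.

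**Figure D1:**
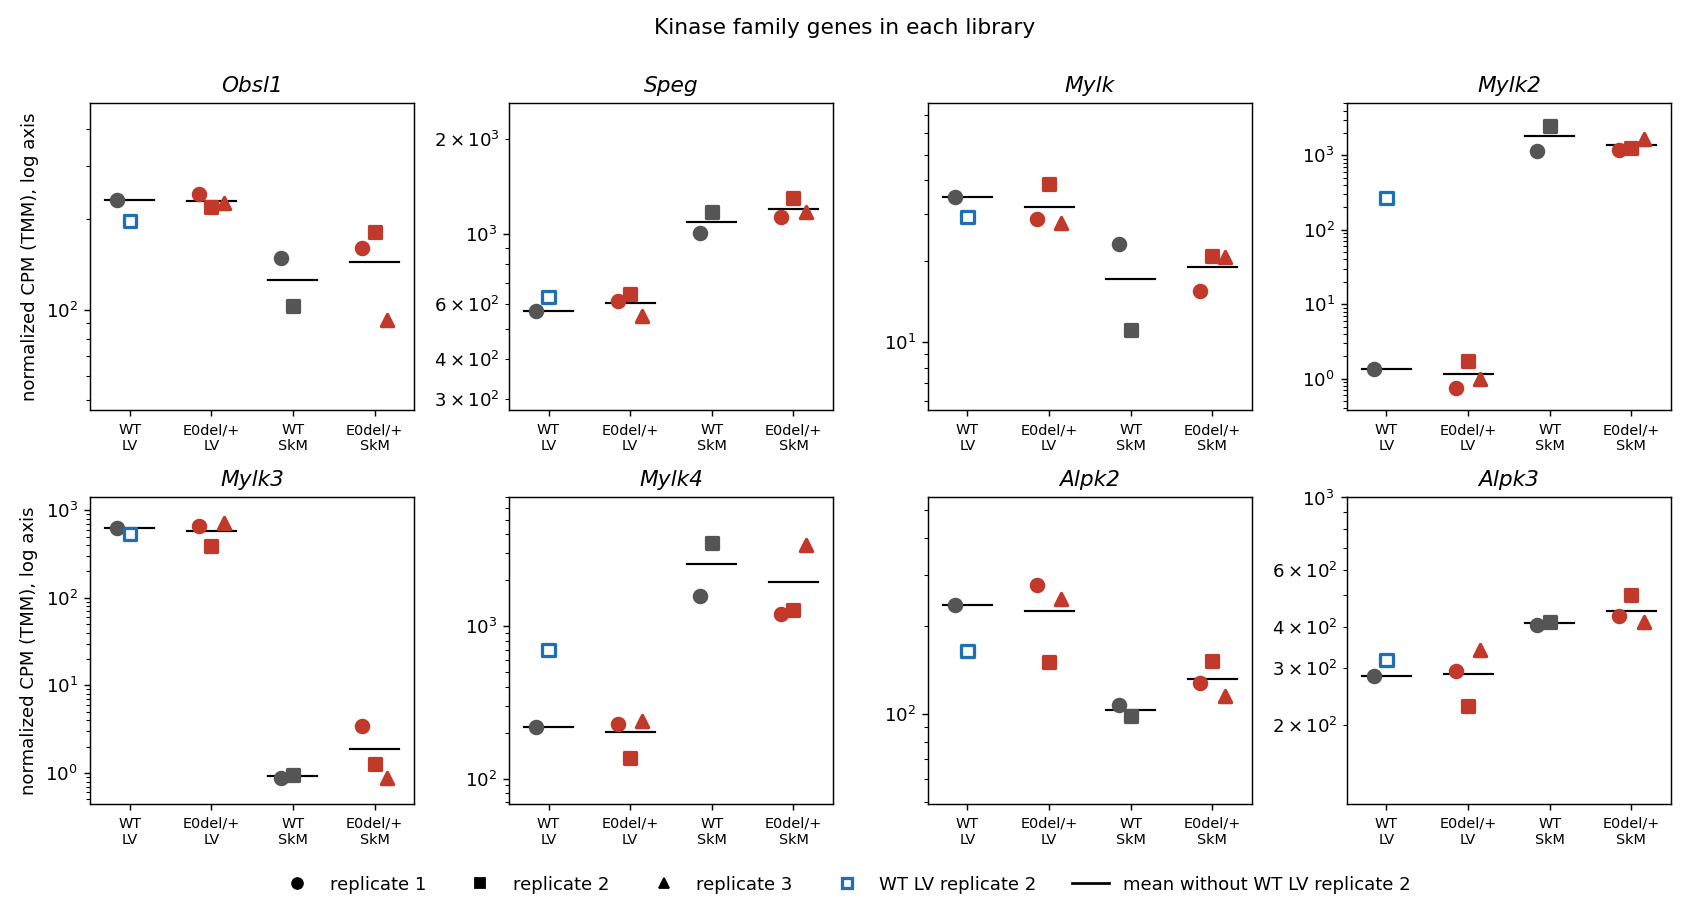
Normalized CPM (TMM, log axis) of the 8 genes in the 10 libraries, by genotype and tissue. Lines are group means without WT LV replicate 2 (open blue square), Mylk2 and Mylk3 differ between tissues by orders of magnitude, the other 6 genes are found in both, and WT LV replicate 2 departs from the other LVs in Mylk2 and Mylk4.

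Mylk3, the cardiac light chain kinase, stood in the LVs at 660, 390 and 705 CPM in E0del/+ replicates 1 to 3 and at 620 CPM in WT replicate 1, with 532 CPM in WT replicate 2. In SkM it was at 3.44, 1.28 and 0.880 CPM in the E0del/+ mice and at 0.889 and 0.951 CPM in WT replicates 1 and 2, which are between 10 and 48 reads. The lowest LV was thus more than 100 times above the highest SkM library. On the log2 scale LV exceeded SkM by 8.51 (standard error 0.39, adjusted p = 2.76e-06), and Mylk3 was higher in LV in 4 of 4 mice, as in WT replicate 2. In each SkM library Mylk3 was at between 0.148% and 0.579% of its mean in the LVs, and the ventricular markers had medians between 0.151% and 0.556%. E0del/+ SkM replicate 1 was the highest in both, and whether these few reads come from the muscle itself was not tested.

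Mylk2, the skeletal muscle enzyme, showed the opposite distribution. It stood in SkM at 1193, 1249 and 1681 CPM in E0del/+ replicates 1 to 3 and at 1154 and 2521 CPM in WT replicates 1 and 2. In LV it was at 0.752, 1.74 and 0.984 CPM in the E0del/+ mice and at 1.33 CPM in WT replicate 1, between 13 and 27 reads, against 268 CPM in WT replicate 2. Mylk2 was lower in LV in 4 of 4 mice, with a log2 fold change of -10.15 (standard error 0.32, adjusted p = 5.13e-07). With WT replicate 2 in the fit it was -9.22 (standard error 1.36). The 4 LVs held Mylk2 at between 0.0482% and 0.112% of its mean in SkM, and the fast fibre markers had medians between 0.0640% and 0.0745% there.

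Mylk4 was found in both tissues. It stood at 1207, 1269 and 3392 CPM in E0del/+ SkM replicates 1 to 3 and at 1586 and 3518 CPM in WT SkM replicates 1 and 2. The LVs held 229, 135 and 239 CPM in the E0del/+ mice, 219 CPM in WT replicate 1 and 697 CPM in WT replicate 2. All SkM libraries were above all LVs, with a log2 fold change of LV over SkM of -3.13 (standard error 0.27, adjusted p = 4.87e-05).

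Mylk, the enzyme of smooth muscle, was the least abundant of the 4 in total over both tissues. It was at 28.8, 38.9 and 27.8 CPM in E0del/+ LVs and 34.6 and 29.2 CPM in WT LVs, and at 15.5, 20.97 and 20.7 CPM in E0del/+ SkM and 23.1 and 11.1 CPM in WT SkM. The tissues did not overlap, with a log2 fold change of 0.64 (standard error 0.12, adjusted p = 0.00300). The 7 smooth muscle markers, led by Smtn, summed to between 499 and 658 CPM in the 4 LVs and to between 197 and 319 CPM in SkM, none of them at 0 counts. Of these markers 3 were called higher in LV (Myocd, Acta2 and Smtn) and 1 higher in SkM (Lmod1), with a median of 0.48. Myocd stood far from the rest, with a log2 fold change of 6.76 next to 1.42 in Acta2, and Tagln (-0.32) and Cnn1 (-0.81) were not called. Myh11, which defines smooth muscle, was at 57.9 ± 8.05 CPM in LV (SD, n = 4) and 36.8 ± 18.4 CPM in SkM (SD, n = 5) and did not pass the test. The part of smooth muscle content in the Mylk difference was not tested. An antisense gene of the tables, E130310I04Rik, shares 333 exon bases with Mylk (4.26% of its exon length) and had 23 to 61 reads in LV and 1 to 5 in SkM. Since the libraries are unstranded, reads in the shared bases cannot be told apart.

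Levels of different genes can be compared only per length, as RPKM with the same TMM scaling. On that scale the kinase of the LV was Mylk3, with 82.4% ± 0.931 of the summed RPKM of Mylk, Mylk2, Mylk3 and Mylk4 (SD, n = 4 LVs), followed by Mylk4 with 15.5% ± 0.232, Mylk with 1.92% ± 0.864 and Mylk2 with 0.195% ± 0.127. In SkM the sum was divided between Mylk2, with 58.9% ± 6.80, and Mylk4, with 40.8% ± 6.90 (SD, n = 5), and Mylk and Mylk3 together made up under 1%. Mylk4 was the only one of the 4 with over 10% in both tissues. The summed RPKM was 234 ± 53.3 in LV (SD, n = 4) and 921 ± 387 in SkM (SD, n = 5). Whereas Mylk2 and Mylk4 changed places between SkM libraries, the RPKM of Mylk3 in the 4 LVs stayed between 5.20 and 5.43 times that of Mylk4, also in E0del/+ LV replicate 2, where both were lowest. WT LV replicate 2 had 44.3% Mylk3, 31.5% Mylk4 and 23.2% Mylk2.

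**Figure D2:**
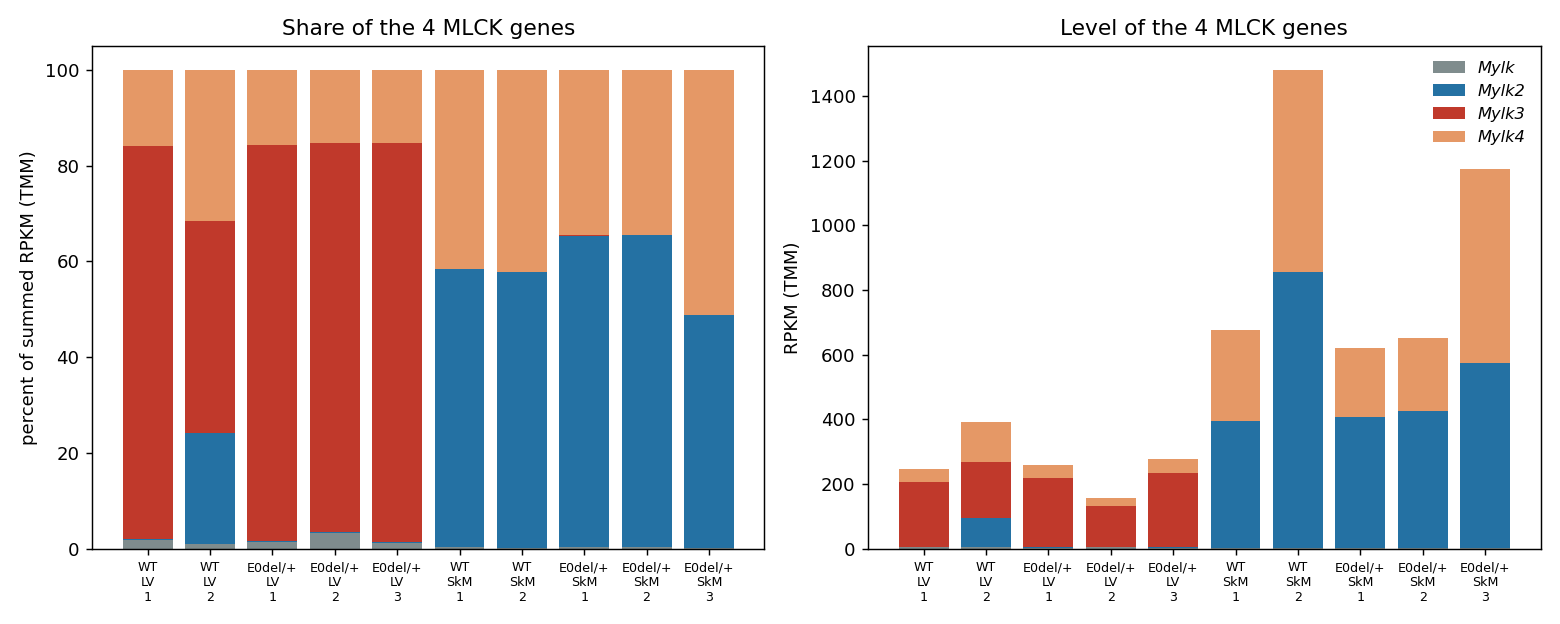
RPKM (TMM) of Mylk, Mylk2, Mylk3 and Mylk4 in each of the 10 libraries, as percent of their sum (left) and as level (right), both axes from 0. Mylk3 fills between 81.1% and 83.2% of the bar in the LVs other than WT replicate 2, and Mylk2 and Mylk4 fill nearly the whole bar in SkM, with a larger sum in WT SkM replicate 2 and E0del/+ SkM replicate 3.

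The excess in WT LV replicate 2 was compared with each SkM library on CPM of total counts. Above the mean of the other LVs, Mylk2 was at 17% and Mylk4 at 24.2% of the same difference in SkM of the same mouse, where the 9 fast fibre markers had a median of 18.1% (15.7% to 44.6%). Against E0del/+ SkM replicate 3 Mylk2 was at 23.0%, Mylk4 at 22.5% and the markers at a median of 21.9%. Against the 3 other SkM libraries Mylk2 was at between 30.1% and 31.7%, Mylk4 at between 47.7% and 75.1%, and the median of the markers at between 24.2% and 26.0%. Mylk2 and Mylk4 thus stood out in this library together with the fast fibre transcripts. Mylk3 in it was at 532 CPM, within the range of the other LVs.

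Speg was high in both tissues. It stood at 613, 644 and 551 CPM in E0del/+ LVs and at 569 and 631 CPM in WT LVs, and at 1129, 1299 and 1171 CPM in E0del/+ SkM and 1006 and 1173 CPM in WT SkM. Each SkM library was above each LV on this scale, but on CPM of total counts E0del/+ LV replicate 2, at 907.5, was above both WT SkM libraries (896.5 and 846.8). LV was lower by a log2 fold change of -1.01 (standard error 0.15, adjusted p = 0.000813), and the ratio of SkM to LV was between 1.77 and 2.13 in the 5 mice. The coefficient of variation was 7.14% in the 4 LVs and 9.11% in SkM.

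Obsl1 went the other way. It was at 243, 219 and 226 CPM in E0del/+ LVs and at 232 and 197 CPM in WT LVs, and at 160, 181 and 92.5 CPM in E0del/+ SkM and 149 and 103 CPM in WT SkM. All LVs were above all SkM libraries. Its log2 fold change, 0.65 (standard error 0.17, adjusted p = 0.0139), was not past the threshold in every subset of mice. The adjusted p was 0.0534 without WT replicate 1 and 0.0552 without E0del/+ replicate 3, when the log2 fold changes were 0.64 and 0.46. Per length, Speg was at 1.25 ± 0.116 times Obsl1 in LV (SD, n = 4) and at 4.36 ± 1.35 times in SkM (SD, n = 5). The genes lie on the same chromosome of mm10 and point toward each other: Speg runs from 75375297 to 75432306 on the plus strand of chromosome 1 (46 exons) and Obsl1 from 75485825 to 75506452 on the minus strand (20 exons), with 53518 bases and 4 genes between them.

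The alpha kinases split between the tissues. Alpk3 was at 293, 228 and 339 CPM in E0del/+ LVs and 282 and 316 CPM in WT LVs, and at 431, 502 and 415 CPM in E0del/+ SkM and 406 and 414 CPM in WT SkM. Although known from the heart, it was higher in SkM, with no overlap between tissues on TMM-scaled CPM (log2 fold change -0.68, standard error 0.17, adjusted p = 0.0101). On total counts the tissues overlapped, LV being at 1.23 times SkM in WT replicate 2 and at 1.18 times in E0del/+ replicate 3. The call of Alpk3 was lost on that scale, with a log2 fold change of -0.03 (adjusted p = 0.798). Alpk2 was at 276, 150 and 247 CPM in E0del/+ LVs and 236 and 164 CPM in WT LVs, and at 128, 152 and 115 CPM in E0del/+ SkM and 108 and 98.3 CPM in WT SkM. It was higher in LV in 3 of 4 mice, E0del/+ replicate 2 having 0.991 times the SkM value (log2 fold change 0.78, standard error 0.22, adjusted p = 0.0158). Leaving out E0del/+ replicate 1, WT replicate 1 or E0del/+ replicate 3 gave log2 fold changes of 0.69, 0.66 and 0.69 with the call lost (adjusted p = 0.0621, 0.0749 and 0.0558). Without E0del/+ replicate 2 it was 1.07 (adjusted p = 0.000158). Per length, Alpk3 was at 1.46 ± 0.227 times Alpk2 in LV (SD, n = 4) and at 4.15 ± 0.411 times in SkM (SD, n = 5). In GENCODE M21, 16.0% and 3.95% of the exon bases of Alpk2 are shared with a pair of antisense genes, whose reads cannot be told apart from its own.

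Ordered by RPKM in the 4 LVs, the 8 genes ran from Mylk3 (193 ± 45.6, SD) over Speg (49.8 ± 3.56), Alpk3 (44.8 ± 7.15), Obsl1 (39.9 ± 1.79), Mylk4 (36.4 ± 8.40), Alpk2 (31.4 ± 7.47) and Mylk (4.16 ± 0.665) to Mylk2 (0.408 ± 0.146). The neighbours from Speg to Alpk2 in this order differed by no more than their spread. In the 5 SkM libraries the order was Mylk2 (529 ± 196), Mylk4 (389 ± 206), Speg (96.9 ± 8.82), Alpk3 (68.1 ± 6.16), Obsl1 (23.7 ± 6.57), Alpk2 (16.6 ± 2.84), Mylk (2.34 ± 0.626) and Mylk3 (0.485 ± 0.360). There the spreads of Mylk2 and Mylk4 overlapped, as did those of Obsl1 and Alpk2.

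**Figure D3:**
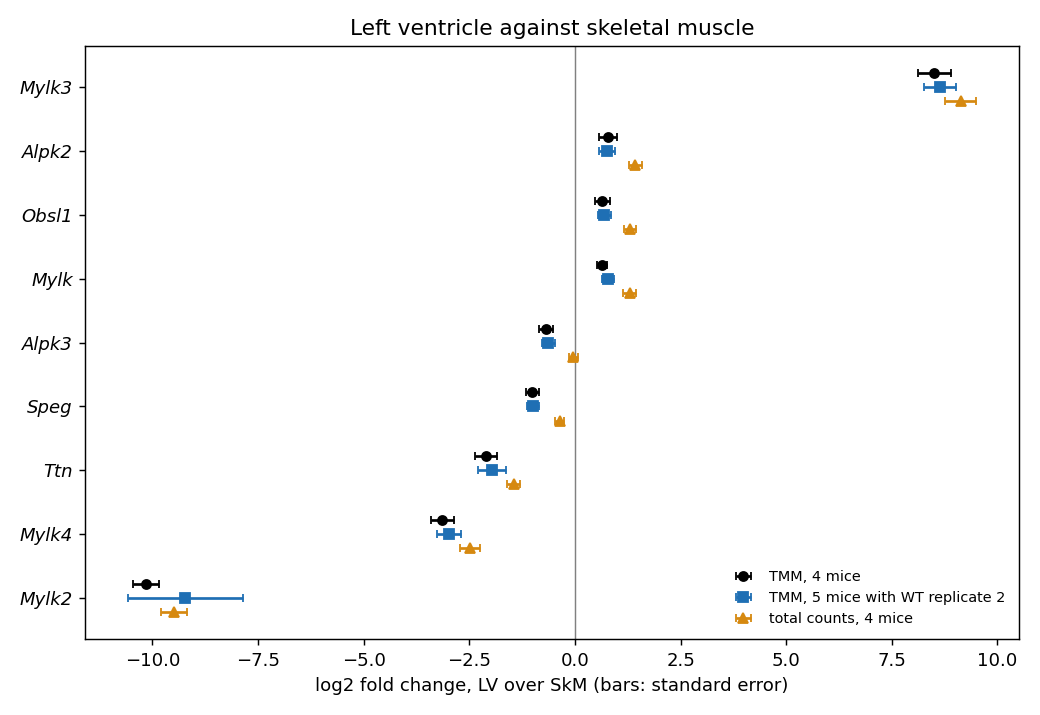
Log2 fold change of LV over SkM for the 8 genes and Ttn, with standard errors, from 3 fits: TMM scaling with 4 mice, TMM with 5 mice including WT replicate 2, and total counts with 4 mice. Mylk3 and Mylk2 lie at 8.51 and -10.15 in the fit of 4 mice, all genes shift to the right on total counts, and Alpk3 then reaches -0.03.

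The scaling bears on the smaller of these values. The TMM factors were between 1.15 and 1.41 in LV and between 0.722 and 0.891 in SkM. On total counts, the median of all genes tested moved from 0.02 to 0.67, and 9381 genes were called, 7683 higher in LV and 1698 lower, in place of 8202 with 4211 higher and 3991 lower. Alpk3 was then at -0.03 (adjusted p = 0.798), so its call depends on correcting for composition. It was also called with DESeq2's size factors (-0.70, adjusted p = 0.0106). On total counts Speg was at -0.36, and the genes higher in LV moved up, Alpk2 to 1.43, Obsl1 to 1.30 and Mylk to 1.29.

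The 250 bases upstream of RefSeq starts (GRCm38.p6) are shown for genes that were higher in the same tissue, although between mice these genes varied differently. RefSeq starts were listed for 6 of the 8 genes, 10 in all, with none for Mylk2 and Alpk2. The windows were searched on both strands for the MEF2 motif by its name and for 5 short motifs. These were AAGTG, which NKX2-5 binds, and the E-box of myogenic factors, spelled CANNTG. The others were AGATAA for the GATA factor family, the TEAD motif with the letters CATTCC, and the core promoter box written TATAAA. MEF2 factors regulate muscle genes, and their motif was found at 1 of 4 starts of Speg and at the only listed start of Mylk4 and of Alpk3, which are the genes with an entry that were higher in SkM under TMM. It was found at no start of Obsl1, Mylk or Mylk3. It occurs in 2.92% of the 32851 RefSeq windows of that length. Capitals mark it, at chr1:75375047-75375296 (plus strand) for Speg, chr13:32783965-32784214 (minus strand) for Mylk4 and chr7:81057350-81057599 (plus strand) for Alpk3. In Alpk3 the match overlaps TATAAA, which occurs in 12.4% of windows. The Mylk4 start of RefSeq lies 2185 bases upstream of where the exons of the count tables begin, whereas for Speg and Alpk3 the RefSeq start is the first exon base of the tables. These are letters and not measured sites, and the starts shown were chosen after their matches were seen.
Speg: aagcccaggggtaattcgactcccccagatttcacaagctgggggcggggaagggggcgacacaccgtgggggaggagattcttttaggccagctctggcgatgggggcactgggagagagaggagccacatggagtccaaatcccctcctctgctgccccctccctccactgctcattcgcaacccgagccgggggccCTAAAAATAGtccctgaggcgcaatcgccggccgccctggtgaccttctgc
Mylk4: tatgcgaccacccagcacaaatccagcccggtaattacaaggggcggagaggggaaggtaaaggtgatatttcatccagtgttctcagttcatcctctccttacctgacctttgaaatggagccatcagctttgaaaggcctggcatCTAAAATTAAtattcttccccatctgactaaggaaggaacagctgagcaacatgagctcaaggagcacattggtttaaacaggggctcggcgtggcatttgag
Alpk3: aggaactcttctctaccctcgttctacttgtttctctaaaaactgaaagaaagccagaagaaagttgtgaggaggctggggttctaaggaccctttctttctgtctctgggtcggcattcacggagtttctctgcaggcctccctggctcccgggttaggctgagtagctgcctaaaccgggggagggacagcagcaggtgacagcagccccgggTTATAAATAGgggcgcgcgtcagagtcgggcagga

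Mylk3, the gene of the LV, has a start in RefSeq 15717 bases upstream of the position where its exons begin in the count tables. The 250 bases before it lie at chr8:85381042-85381291 on the minus strand and hold AAGTG at 4 places and AGATAA at 2 places, all in capitals and counted on either strand, with 1 of the AAGTG matches sharing bases with an E-box. A window with at least 4 AAGTG makes up 0.326% of all windows, and 1 or more is found in 40.7%, while AGATAA is found in 9.99%. The start used by the count tables has neither, only a CATTCC (12.6% of windows). Reads from exons outside the tables' models were not counted, so use of either start was not measured. The E-box is found in 66.2% of windows.
Mylk3: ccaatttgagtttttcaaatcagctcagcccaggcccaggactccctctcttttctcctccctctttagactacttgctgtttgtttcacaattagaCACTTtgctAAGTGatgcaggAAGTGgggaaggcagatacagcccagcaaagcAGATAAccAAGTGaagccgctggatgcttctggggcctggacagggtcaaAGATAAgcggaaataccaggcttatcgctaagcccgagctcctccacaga

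The proteins that these kinases bind or act on were counted as lists. Beside the counts of each list, 31.5% of all genes tested were called higher in LV and 29.8% higher in SkM. Of 18 partners of Obsl1, Speg and their family, 6 were higher in LV, 11 higher in SkM and 1 (Fbxw8) not called, with a median of -1.07 beside 0.02 for all genes. Ryr2 and Atp2a2, the calcium release channel and calcium pump of the heart, had the largest excess in LV (log2 fold changes 8.92 and 4.68, adjusted p = 1.67e-06 and 0.000195). Ryr1 and Jph1, the release channel and a junctophilin of skeletal muscle, had the largest in SkM (-10.66 and -4.71, adjusted p = 4.24e-07 and 4.12e-06). Jph2, which Speg binds, was higher in SkM (-1.47), as Speg was, and the 3M proteins Cul7 and Ccdc8 were higher in LV (2.20 and 2.38), as Obsl1 was. Jph2, Cul7 and Ccdc8 were picked after their values were seen, so no agreement between partners is drawn from them. Unlike Speg, Ank2 (0.96) and Dnm2 (0.48) of the same list were higher in LV, as were Ryr2 and Atp2a2.

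The substrates and activators of the light chain kinases were called on both sides, as all genes tested were. Of 9 regulatory light chains and calmodulins 8 could be tested, and 3 were higher in LV, 4 higher in SkM and 1 (Myl9) not called (median -0.69). Myl2, the ventricular light chain, and Myl12a led in LV (5.26 and 1.58), and Mylpf, the fast fibre light chain, led in SkM (-10.46). Myl7, the atrial light chain, was at 1.48 ± 0.854 CPM in LV (SD, n = 4) and was not tested. Of 7 genes of the light chain phosphatase and its inhibitors, 3 were higher in LV and 2 in SkM (median 0.19), with Ppp1r14a and Ppp1r12c at 1.85 and 1.65 and Ppp1cb and Ppp1r14b at -0.97 and -0.84.

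Other kinases were divided too, as were all genes tested (31.5% higher in LV and 29.8% higher in SkM). Among 7 other kinases of the light chain, 4 were higher in LV and 2 in SkM (median 0.56), from Dapk1 and Rock1 (2.35 and 1.71) to Dapk2 and Rock2 (-2.61 and -0.78). Of the other alpha kinases 3 of 4 could be tested: Alpk1 was higher in LV (0.69), Eef2k, which phosphorylates elongation factor 2, higher in SkM (-1.37), and Trpm7 at 0.04 was not called. Among 12 other kinases of muscle, 3 were higher in LV and 7 in SkM (median -1.20), with Tnni3k and Camk2d at 8.61 and 0.92, and Musk, the kinase of the neuromuscular junction, and Phkg1, of phosphorylase kinase, at -6.59 and -4.82. On total counts the medians of the 6 lists moved with that of all genes, and Rock2 (-0.13), Ppp1r14b (-0.19) and Mtm1 (0.03) were no longer called. Srpk3 was then called higher in LV (0.25, adjusted p = 0.0400) in place of SkM (-0.40, adjusted p = 0.0138). Fbxw8, Myl9, Ppp1r14c, Dapk3, Trpm7, Trio, Kalrn and the smooth muscle marker Myh11 were called higher in LV on total counts only, and the other muscle kinases then had 6 genes on each side.

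Within SkM, the mice differed in several of the genes. Mylk2 and Mylk4 were highest in WT replicate 2 and E0del/+ replicate 3, and Obsl1 was lowest in the same libraries. Mylk4 was at 3518 and 3392 CPM there and between 1207 and 1586 CPM in the 3 others, a ratio of highest to lowest of 2.91, while that of Speg was 1.29. The slow fibre markers, led by Myh7, summed to 172 and 314 CPM in these libraries and to 1279, 1856 and 2693 CPM in WT replicate 1 and E0del/+ replicates 1 and 2, with none at 0 counts. Myh7 alone was at 102 and 200 CPM against 925, 1390 and 1981 CPM. The same libraries had Xist at 0.476 and 0.528 CPM against 356 to 445 CPM. The part of fibre content or of sex in these values was not tested. There is 1 such mouse among 2 WT and 1 among 3 E0del/+ mice, and the 5 slow markers had a median log2 fold change of 1.03 between genotypes in SkM, with 0 called. Of the 5 slow markers, 2 were called higher in LV (Myl3 and Tnnc1), 2 higher in SkM (Tnni1 and Tnnt1) and Myh7 was not called (median 0.62).

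**Figure D4:**
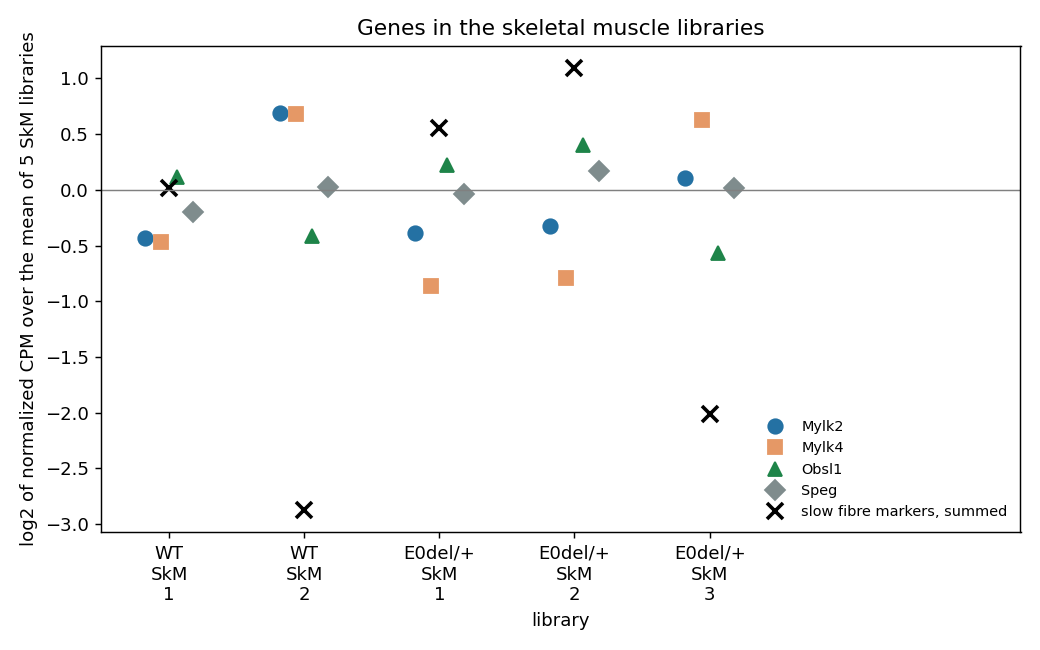
Log2 of the normalized CPM in each of the 5 SkM libraries over the mean of the 5, for Mylk2, Mylk4, Obsl1, Speg and the sum of 5 slow fibre markers. WT replicate 2 and E0del/+ replicate 3 are the lowest in the slow fibre sum and in Obsl1 and the highest in Mylk2 and Mylk4, and Speg lies close to 0 in every library.

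The genotypes were then compared within each tissue, to see whether these genes change when 1 copy of E0 is missing. Ttn itself stood at 6383, 3948 and 5723 CPM in E0del/+ LVs and at 6274 and 8054 CPM in WT LVs, with a log2 fold change of -0.45 (standard error 0.27, adjusted p = 0.997) and of -0.25 without WT replicate 2. In SkM it was at 23402, 24126 and 16980 CPM in E0del/+ and 27160 and 21969 CPM in WT (log2 fold change -0.17, standard error 0.24, adjusted p = 0.9998). The genotypes overlapped in both tissues.

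In LV, 0 of the 8 genes were called, beside 0% of 13420 genes. The same edgeR test gave 564 genes an unadjusted p under 0.05, and DESeq2 called 0 genes. For Speg, Obsl1, Mylk, Mylk3, Alpk2 and Alpk3 the log2 fold changes of E0del/+ over WT lay between -0.08 and 0.14 with standard errors from 0.18 to 0.28, and between -0.13 and 0.07 without WT replicate 2. Mylk2 and Mylk4 were at -6.88 (standard error 1.59) and -1.21 (standard error 0.44), with adjusted p = 0.997 for both, and at -0.22 and -0.14 without WT replicate 2. The values of both in LV thus rest on the library that holds fast fibre transcripts. Within batch 1, the E0del/+ LV was at 1.05 times WT in Mylk4, 1.06 times in Mylk3 and 1.08 times in Speg, and within batch 2 at 0.194, 0.734 and 1.02 times. The mice of batch 2 also differed in Xist, so these ratios do not separate genotype from sex. None of the 8 genes had E0del/+ LVs entirely above or below both WT LVs, which 16.4% of all genes had. With the batch as a block, 5 genes were called in LV, none of the 8 among them.

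E0del/+ LV replicate 2 was the lowest LV in Mylk3, Mylk4, Alpk2, Alpk3 and Ttn. Its Mylk3 was at 390 CPM against 532 to 705 CPM in the other LVs, and its Alpk2 at 150 CPM against 164 to 276 CPM. Its TMM factor of 1.41 was the largest of all libraries, its Myh6 was at 30547 CPM against 32199 to 45552 CPM, and its endothelial markers summed to 1205 CPM against 738 to 965 CPM, with Cdh5 the most abundant and none at 0. In the comparison of tissues all 4 endothelial markers were higher in LV (median 1.99). On CPM of total counts it stayed lowest in Mylk3, Mylk4, Alpk3 and Ttn, but Alpk2 was lower in WT LV replicate 2 (190.7 against 211.5). Myh6 was also lower in WT LV replicate 2 on that scale (37355.8 against 43021.8). The endothelial sum of E0del/+ LV replicate 2, at 1697.4, was still the highest of the LVs. Obsl1, at 219 CPM the lowest of the 4 LVs with TMM, was the highest on total counts (308.5). The part of composition in these values was not tested.

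In SkM, 0 of the 8 genes were called, again beside 0% of 13154 genes. There were 114 genes with an unadjusted p under 0.05, and DESeq2 called 0. Alpk2 was at 128, 152 and 115 CPM in E0del/+ against 108 and 98.3 CPM in WT (log2 fold change 0.38, standard error 0.16, adjusted p = 0.9998), and its ratio of E0del/+ to WT was 1.19 in batch 1 and 1.54 in batch 2. Alpk3 was also above both WT values in all 3 E0del/+ mice, by less than 1 CPM in replicate 3, with a log2 fold change of 0.16 (standard error 0.15). These are 2 of the 8 genes without overlap between genotypes, beside 11.6% of all genes. On CPM of total counts both overlapped, E0del/+ replicate 3 being at 92.3 against 96.1 in WT replicate 1 for Alpk2 and at 331.8 against 361.6 for Alpk3. Mylk3 had the largest value, 1.05 (standard error 0.76), on 10 to 48 reads, and was at 0.25 without E0del/+ replicate 1. Mylk2 and Mylk4 were at -0.39 and -0.35, and at 0.25 and 0.30 without WT replicate 2, the library lowest in slow fibre markers. Mylk4 was lower in E0del/+ in both batches (ratios of 0.761 and 0.361), and at -0.90 with the batch as a block, while E0del/+ replicate 3, which has no WT partner, is also low in those markers. Obsl1 and Mylk, at 0.22 and 0.17, changed sign without WT replicate 2 (-0.04 and -0.28), and Mylk was at 0.83 without WT replicate 1. Speg was at 0.16. With the batch as a block 1 gene was called, which was none of the 8. The ratios of batch 2 in SkM, too, are between mice that differ in Xist.

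**Figure D5:**
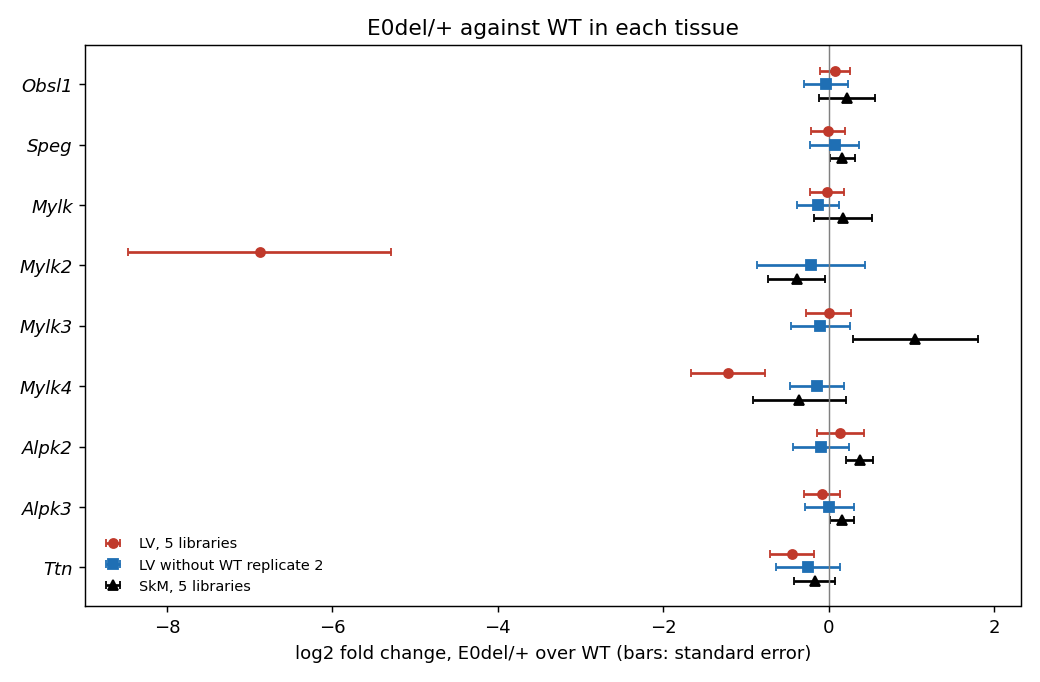
Log2 fold change of E0del/+ over WT for the 8 genes and Ttn, with standard errors, in 5 LV libraries, in 4 LV libraries without WT replicate 2, and in 5 SkM libraries. The values of Mylk2 and Mylk4 in LV move from -6.88 and -1.21 to -0.22 and -0.14 without that library.

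Whether the genotypes differ in the same way in both tissues was tested as an interaction, with the mouse as a block. None of the 8 genes was called, beside 0% of 14327 genes, 238 of which had an unadjusted p under 0.05. The differences of SkM minus LV were between 0.08 and 0.92 for 7 genes, with adjusted p = 1.0, and 4.03 for Mylk2, which fell to 0.57 without both libraries of WT replicate 2 and was 6.45 with no block (adjusted p = 1.0). In the 6 lists of partners, substrates and kinases, 0 genes were called between genotypes in either tissue, and the medians were between -0.29 and -0.03 in LV and between -0.12 and 0.11 in SkM, where all genes had medians of -0.01. The lowest LV median of these 6 was that of the regulatory light chains and calmodulins, which was 0.14 without WT replicate 2. Without that library the 6 LV medians were between -0.07 and 0.14.

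For each gene, genes with the nearest profile over the 9 libraries other than WT LV replicate 2 were found among 10231 genes, by the root mean square difference of centred log2(CPM + 0.5). Those of Mylk2 were Pvalb, Mylpf and Myoz1 (0.334 to 0.360, where the spread of Mylk2 itself was 4.89), and those of Mylk3 were Pln and Fhl2 (0.254 and 0.256, spread 4.16). Mylk4 was nearest to Kif3c, Slc37a4 and Gpt2 (0.310 to 0.331, spread 1.72). Speg was nearest to Rc3h2 and Gm889 (0.0859 and 0.0949, spread 0.487), Obsl1 to B3gntl1, Nav2 and Eme2 (0.146 to 0.153), and Mylk to Stxbp6, Tceal8 and Sepp1 (0.132 to 0.140). Alpk3 was nearest to Clint1, Trip12 and Arid1b (0.0429 to 0.0542), and Alpk2 to Got1, Suclg2 and Abtb2 (0.0856 to 0.130). The distance between tissues takes up most of the profile of Mylk2 and Mylk3, so their neighbours share it. The neighbours named for the other genes also had log2 fold changes between tissues of the same sign and similar size as their gene. Whether any of these neighbours vary with their gene beyond the tissue difference was not tested.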

How the data were processed

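Poly(A) RNA of LV and SkM from 2 WT and 3 E0del/+ mice was made into unstranded Nextera XT libraries. Gene counts and RPKM are as the authors deposited them. The submitters' processing notes name STAR, DESeq2 and mm10. The deposited RPKM were used only to check the counts. Counts of 10 libraries were tested in R 4.3.3 with edgeR 4.0.16 (filterByExpr, TMM, quasi-likelihood F-test, Benjamini-Hochberg adjustment over all genes tested, threshold 0.05). LV was compared with SkM with the mouse as a block, in 8 libraries of 4 mice. The genotypes were compared in each tissue over 5 libraries, and their interaction with tissue over 10. All adjusted p-values in the text come from edgeR unless DESeq2 1.42.0 is named. The fits were tested on simulated data. RPKM here are TMM-scaled CPM per kilobase of the tables' exon length.

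Both tissues came from the same mouse, which is the basis of the pairing. Deviations from group means correlated by -0.104 to 0.0953 between the tissues of a mouse, and between genotypes within batches 1 and 2 by 0.0337 and -0.119 in LV and by 0.522 and 0.309 in SkM. In a WT group of 2 libraries the deviations mirror each other. Both WT mice therefore have the same value (0.0922), and the values of batches 1 and 2 are not independent. The replicate number equals the labels' batch tag, so it was used as a block in an alternative.

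The genes and the lists were chosen with earlier results of these data known. Values are given for the 8 genes and Ttn in each library, and for each list the counts called and up to 4 genes, those with the 2 largest values past the threshold in each direction between tissues. The lists are Obsl1 and Speg family partners, regulatory light chains and calmodulins, light chain phosphatase, other light chain kinases, other alpha kinases, other muscle kinases, and markers of ventricle, fast fibres, slow fibres, smooth muscle, endothelium and atrium. Jph2, Cul7, Ccdc8, Myl9, Myl7, Trpm7, Fbxw8, Xist and single markers were named after their values were seen. Some genes that these rules select are not reported here. Alternatives were DESeq2's test and size factors, total counts, no filter, at least 10 counts in every library, WT replicate 2 in or out, other blocks, and each replicate left out.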

Additional observations from a re-analysis of the deposited data

Results flagged for a closer look

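In each tissue the highest or lowest of the 5 libraries was compared with its neighbour, as the gap between them divided by the whole range, for the 8 genes in 2 tissues. A gap above 0.71 was flagged, which about 1 in 20 groups passes by chance if values are independent and normally distributed. Of 16 groups 4 were flagged. The groups share libraries, and WT LV replicate 2 had been set apart beforehand, so this count cannot be set against that rate. In LV, WT replicate 2 stood far above the other libraries in Mylk2 (268 CPM against at most 1.74 CPM, gap of 0.996) and in Mylk4 (697 CPM against at most 239 CPM, gap of 0.816). The fast fibre markers of that library are given in the report, and both genotype differences move toward 0 without it.

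In SkM, E0del/+ replicate 1 stood above the others in Mylk3 (3.44 CPM against at most 1.28 CPM, gap of 0.844), where Myh6 was also highest, at 249 CPM against at most 164 CPM. E0del/+ replicate 2 stood above the others in Alpk3 (502 CPM against at most 431 CPM, gap of 0.736).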

How the results depend on the processing

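All 8 genes kept their direction between tissues under every alternative run, and calls were lost only for Obsl1, Alpk2 and Alpk3, as given above; the count of genes called was between 6895 and 7931 with 1 mouse left out, 8628 with no replicate block and 8255 with all 5 mice. With the replicate number as a block, 5 genes were called in LV and 1 in SkM, and no call among the 8 genes changed. Leaving out 1 library gave 0 to 578 genes in LV, the highest without WT replicate 1, and 0 in SkM. The sole WT library is then replicate 2, so only E0del/+ supplies the spread, and nothing is drawn from those calls.

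Between genotypes no value below was called, and the causes of the changes in sign were not tested. In LV on total counts, the log2 fold changes were 0.07 for Speg, 0.06 for Mylk and 0.04 for Mylk3, and with the replicate block 0.06 for Speg and 0.06 for Mylk. Mylk3, at -0.00 in the report's fit, was at 0.00 with DESeq2's test, with its size factors and with no filter. With 1 library left out, values in LV ran from -0.03 to 0.20 for Obsl1, from -0.08 to 0.07 for Speg, from -0.21 to 0.11 for Mylk, from -0.15 to 0.21 for Mylk3, from -0.09 to 0.43 for Alpk2 and from -0.21 to 0.04 for Alpk3. In SkM they ran from -0.04 to 0.54 for Obsl1, from -0.28 to 0.83 for Mylk, from -0.83 to 0.25 for Mylk2 and from -1.05 to 0.30 for Mylk4. The interaction of Mylk was -0.06 without WT replicate 2. Mylk3 in SkM, and Mylk2 in the LVs other than WT replicate 2, rest on 10 to 48 reads, so their levels there are imprecise.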

Other observations

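The atrial markers Myl7, Myl4 and Sln had means of 1.48, 3.53 and 0.449 CPM in the LVs other than WT replicate 2. Nppa, the most abundant of the 4 atrial markers in LV, was at 173 and 170 CPM in WT LV replicates 1 and 2 and at 183, 413 and 375 CPM in the E0del/+ LVs. Of the 3 atrial markers tested between tissues, Nppa was higher in LV, Sln higher in SkM and Myl4 not called (median -0.48). Between genotypes 0 of the 4 atrial markers were called in LV, where their median log2 fold change was 1.0. Without WT replicate 2 this median was 1.5.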
